A study of Danio rerio with 27 samples.

Results

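The genes described here are the splicing factor and RNA-binding protein genes of the zebrafish larva, Danio rerio, chosen by symbol, with earlier results of these data known: srsf and tra2 genes (SR proteins), hnrnp genes (hnRNPs), sf3a, sf3b and u2af genes (U2 factors), prpf genes, rbm genes, clk1 to clk4 (Clk kinases), cirbp genes and zranb2. They make up 128 of the 24101 gene identifiers measured by RNA sequencing, and their 109 symbols fall into 21 SR protein, 33 hnRNP, 12 U2 factor, 16 Prpf, 39 Rbm, 4 Clk, 2 cirbp and 1 zranb2 identifiers. No filter was added here, so all 128 were tested, but the deposited table holds only genes that met the authors' minimum of 1 TPM in all replicates of a group, and genes of these families under it were not analysed here. Of the members, 36 share their symbol with another identifier (17 symbols), so how their transcripts were divided among the copies is uncertain. They are named with their identifier.

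The libraries came from whole larvae of the AB strain, 3 in each of 9 groups. Larvae at 96 h post fertilization (hpf) were kept for 12 h at 10 °C, a lethal cold for this species, or at 28 °C, the rearing temperature. At each temperature they received the Foxo1 inhibitor AS1842856 at 0.5 µM (10C_AS, 28C_AS), the MEK inhibitor PD0325901 at 5 µM (10C_PD, 28C_PD), the p38 inhibitor SB203580 at 50 µM (10C_SB, 28C_SB) or 0.1% of the solvent DMSO (10C_DMSO, 28C_DMSO). The 96hpf group was untreated and taken at the start. Whole larvae mix all tissues, so fewer cells of a type and less RNA per cell cannot be told apart. The paper calls the replicates biological, but no label ties a replicate to a clutch or tank of its own. The p-values therefore cover only the spread among these libraries.

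Splicing removes introns from pre-mRNA in the spliceosome, which is built stepwise from small nuclear ribonucleoprotein particles (snRNPs) and many further proteins. SR proteins bind exonic enhancers and mostly favour the use of an exon, while hnRNPs often act against it at silencers, and Clk kinases set SR protein activity by phosphorylation. In mammals Cirbp is a classic cold-inducible RNA-binding protein, and Clk activity rises at lower body temperature.

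Levels are scaled TPM, the deposited TPM (a length-corrected share of the transcripts of a library) divided by a size factor per library. Changes are differences of log2(scaled TPM + 1) from a limma fit over all 27 libraries, and a gene is called higher or lower where its Benjamini-Hochberg adjusted p reached 0.05 and its fold 1.5 (0.585 on the log2 scale). TPM keeps no read depth, and the read numbers that the study reports were not used here. Size factors lay between 0.940 and 1.11 and mitochondrial transcripts took 7.30 to 12.9% of TPM. The library of 10C_DMSO replicate 1 had a mitochondrial share of 8.42%, against 11.2 and 11.4% in replicates 2 and 3, and 28C_DMSO replicate 1 held 7.30%. The lowest correlation within a group, 0.966, was that between 10C_DMSO replicates 1 and 3.

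Mean levels of the members over all libraries spanned 1.07 to 1253 scaled TPM with a median of 24, and 18 members were above 100. The highest was cirbpb, followed by cirbpa, srsf5a, which encodes an SR protein, and hnrnpaba, an hnRNP gene. Another 14 members were under 5, and 4 members, all with shared symbols, held 27 values listed at 0. Together the members took 0.684 to 0.862% of deposited TPM. That share was 0.836, 0.826 and 0.862% in 28C_AS larvae, against 0.695, 0.684 and 0.701% in 28C_DMSO larvae. In 28C_PD larvae it was nearly as high, at 0.806, 0.804 and 0.801%. These shares were not divided by the size factors, which were larger in every 28C_PD library than in any library of another group. On scaled TPM the 28C_PD larvae therefore lie lower against the other groups than these shares show. It was 0.777, 0.761 and 0.755% in 96hpf larvae and 0.732, 0.729 and 0.715% in 10C_DMSO larvae. With TPM as deposited the 3 libraries of 28C_DMSO were the lowest of all 27, and every library of the other groups lay above them. Whether this order holds on scaled TPM was not tested.

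The first question was whether cold alone changes the transcripts of splicing factors (10C_DMSO against 28C_DMSO). Of the 128 members 19 were called, 11 higher (8.59%) and 8 lower (6.25%), close to the 8.73% higher and 7.06% lower among all genes, and the median change was 0.06 on the log2 scale over the members and -0.00 over all genes. The split between directions depended on the scaling: it was 6 higher and 9 lower with TPM as deposited, and 4 higher and 11 lower with quantile normalization. The called members ranged from -0.90 to 1.36.

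Among SR protein genes 2 of 21 fell and none rose, with a class median of -0.19. The gene srsf1b (ENSDARG00000017843), 1 of the zebrafish genes for SRSF1, the SR protein that helps to define 5′ splice sites, had 19.4, 18.9 and 19.9 scaled TPM in 10C_DMSO larvae, against 30.6, 37.4 and 32.0 in 28C_DMSO larvae. The gene tra2b (ENSDARG00000002168), whose product binds GA-rich exonic enhancers, had 25.9, 27.1 and 25.3 in 10C_DMSO larvae, against 43.8, 45.4 and 37.1 in 28C_DMSO larvae. In both genes every 10C_DMSO library lay below every 28C_DMSO one. The log2 changes were -0.75 ± 0.06 (SE, limma adjusted p = 7e-10) for srsf1b and -0.66 ± 0.13 (SE, limma adjusted p = 0.000319) for tra2b, and both calls held under every alternative tried. The other 19 SR members were not called.

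Among hnRNP genes 5 of 33 were called higher and none lower, with a class median of 0.19. The only one with a single identifier was hnrnpa1a (ENSDARG00000011020), a gene for hnRNP A1, which binds splicing silencers. It had 137, 136 and 140 scaled TPM in 10C_DMSO larvae, against 94.0, 85.5 and 86.9 in 28C_DMSO larvae, groups that did not overlap, and a log2 change of 0.63 ± 0.04 (SE, limma adjusted p = 7.2e-11). With TPM as deposited its change was 0.57, just under the fold threshold, and with quantile normalization 0.39.

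The other 4 were copies with shared symbols: hnrnpa0b ENSDARG00000112653 (0.67), hnrnpa0l ENSDARG00000036161 (0.73) and ENSDARG00000114889 (0.62), and hnrnpl2 ENSDARG00000114431 (1.36). Copy ENSDARG00000114889 lost its call without 28C_DMSO replicate 2 (0.53) or 10C_DMSO replicate 1 (0.54), and the 3 called copies of hnrnpa0b and hnrnpa0l lost theirs with quantile normalization (0.42 to 0.51). Summed over its 3 identifiers, hnrnpa0l averaged 441 ± 12.0 scaled TPM in 10C_DMSO larvae and 280 ± 9.82 in 28C_DMSO larvae (SD, n = 3 each), a log2 change of 0.66 (limma adjusted p = 1.94e-13), and summed hnrnpa0b changed by 0.63 (limma adjusted p = 2.57e-07). Of the hnrnpa0l identifiers, ENSDARG00000076380, with a mean of only 3.62 scaled TPM over all libraries, carries the symbol gzf1 in a reference list of gene names. It was kept in the class and the sum under its deposited symbol. In mammals hnRNP A0 binds AU-rich elements of mRNAs. The hnrnpl2 copy had 3.69, 1.59 and 0.395 in 10C_DMSO larvae and was listed at 0 in all 28C_DMSO libraries, while in a fit on both groups alone its limma adjusted p was 0.0531 and the summed symbol, with a change of 0.22, was not called. Just under the fold threshold lay hnrnpub, with 61.3, 71.1 and 74.0 in 10C_DMSO larvae, against 46.9, 45.0 and 49.9 in 28C_DMSO larvae, and a log2 change of 0.53. Also there were hnrnpa0a (0.56) and, as a fall, hnrnpdl ENSDARG00000003429 (-0.53, limma adjusted p = 0.000696).

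Of the 12 U2 factor genes, which serve the recognition of the 3′ splice site and the branch point, only sf3a1 (ENSDARG00000041887) was called. It had 47.4, 38.7 and 39.8 scaled TPM in 10C_DMSO larvae, against 22.4, 26.6 and 27.5 in 28C_DMSO larvae, with a log2 change of 0.70 ± 0.11 (SE, limma adjusted p = 2.13e-05). Its call was lost without the 2 DMSO libraries of low mitochondrial share, where the change was 0.52, and with quantile normalization (0.54). Of the 16 Prpf identifiers, named after yeast pre-mRNA processing genes, the 2 of prpf18, whose product acts at the second step of splicing, were called lower, ENSDARG00000113879 with -0.90 and ENSDARG00000058306 with -0.60. The second lost its call without 28C_DMSO replicate 3 (-0.54) or 10C_DMSO replicate 2 (-0.43). Summed, prpf18 averaged 10.6 ± 1.00 scaled TPM in 10C_DMSO larvae and 18.9 ± 1.23 in 28C_DMSO larvae (SD, n = 3 each), a log2 change of -0.79 (limma adjusted p = 4.21e-09). Prpf members just under the fold threshold were prpf19 (0.52), prpf38b (0.49) and prpf3 ENSDARG00000116776 (-0.49).

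Among Rbm genes 5 of 39 were called higher and 3 lower, with a class median of 0.05. The largest called fall of the class was that of rbm5 (ENSDARG00000098280), whose human counterpart controls alternative splicing of apoptosis genes. It had 43.8, 47.6 and 39.6 scaled TPM in 10C_DMSO larvae, against 75.4, 71.3 and 84.3 in 28C_DMSO larvae. The gene rbm47 (ENSDARG00000061985), known in mammals as a cofactor of C-to-U mRNA editing, had 24.0, 25.4 and 25.8 in 10C_DMSO larvae, against 14.1, 15.3 and 15.8 in 28C_DMSO larvae. Neither pair of groups overlapped, the log2 changes were -0.81 ± 0.09 for rbm5 and 0.70 ± 0.05 for rbm47 (SE, limma adjusted p = 6.71e-07 and 9.73e-10), and both calls held under every alternative tried.

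The paralogs rbm39a and rbm39b, related to the splicing factor U2AF65, moved in opposite directions. The gene rbm39a had 129, 117 and 115 scaled TPM in 10C_DMSO larvae, against 81.0, 72.8 and 80.6 in 28C_DMSO larvae, while rbm39b had 18.0, 19.2 and 18.4 in 10C_DMSO larvae, against 26.9, 30.0 and 28.6 in 28C_DMSO larvae. Their log2 changes were 0.62 ± 0.08 and -0.59 ± 0.08 (SE, limma adjusted p = 1.99e-06 and 4.4e-06). Since both lie near the fold threshold, single libraries decided these calls: without 28C_DMSO replicate 2 the changes were 0.57 and -0.56, and without 10C_DMSO replicate 1 they were 0.57 and -0.57. With quantile normalization rbm39a changed by 0.38. The ratio of rbm39a to rbm39b was 5.60 to 7.30 in the 12 libraries of all cold groups, against 2.43 to 3.44 in the 12 libraries of all groups exposed at 28 °C. Such a separation was not particular to this pair. The ratio of hnrnpua to hnrnpub was 0.213 to 0.248 in the cold, against 0.311 to 0.374. Those of the hnrnpa1, rbm14 and clk4 pairs also stood apart, while those of other pairs, such as srsf2 and u2af2, overlapped.

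The genes rbm15b and rbm15 also moved in opposite directions, and their mammalian products guide the complex that writes N6-methyladenosine on RNA. The gene rbm15b had 10.9, 11.6 and 10.2 scaled TPM in 10C_DMSO larvae, against 6.79, 6.40 and 7.08 in 28C_DMSO larvae (log2 change 0.62 ± 0.06), and rbm15 had 7.10, 6.14 and 7.31 in 10C_DMSO larvae, against 11.6, 11.6 and 9.51 in 28C_DMSO larvae (-0.60 ± 0.08). Without 10C_DMSO replicate 2 or 28C_DMSO replicate 2, each alone, the change of rbm15b was 0.58, just under the fold threshold. That of rbm15 was -0.53 without 10C_DMSO replicate 2 and -0.56 without 28C_DMSO replicate 1 or replicate 2. Also called higher were rbm4.3, whose mammalian relatives regulate alternative splicing, with 0.64 (0.40 with quantile normalization), and rbm24b ENSDARG00000110167, with 0.95 and a limma adjusted p of 0.0301. That rbm24b copy lost its call without 10C_DMSO replicate 2 or 3 or 28C_DMSO replicate 1 or 3, where its limma adjusted p was 0.0592 to 0.118, and the summed symbol changed by 0.54 and was not called. Rbm members just under the fold threshold were rbm4.2 (0.52), rbm4.1 (-0.52) and rbm48 (-0.50).

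Of the Clk kinase genes only clk2b was called, with 3.66, 4.93 and 4.68 scaled TPM in 10C_DMSO larvae, against 7.73, 6.63 and 7.44 in 28C_DMSO larvae, and a log2 change of -0.61 ± 0.10 (SE, limma adjusted p = 5.55e-05). Without 10C_DMSO replicate 1 its change was -0.51, and without 28C_DMSO replicate 1 it was -0.57. The values of clk2a, clk4a and clk4b were -0.30, -0.16 and 0.32, none of them called. The cirbp genes were not called either. The gene cirbpa had 407, 398 and 402 scaled TPM in 10C_DMSO larvae, against 324, 344 and 326 in 28C_DMSO larvae, groups that did not overlap, for a log2 change of 0.28. The more abundant cirbpb had 1275, 1190 and 1163 in 10C_DMSO larvae, against 1306, 1271 and 1256 in 28C_DMSO larvae (-0.08), and zranb2 changed by 0.02.

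**Figure D1:**
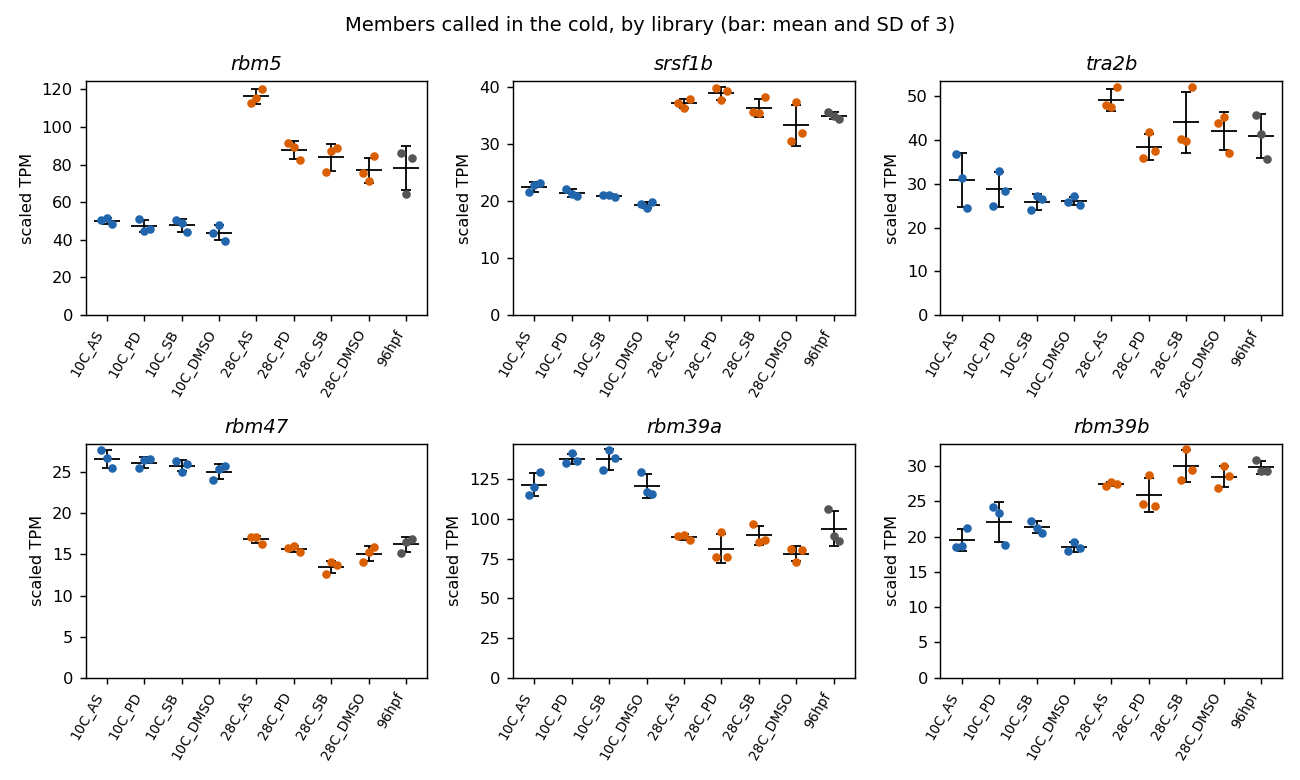
Scaled TPM (vertical axes, from 0) of 6 members called in the cold, in every library by group, with the mean and SD of 3 libraries. In rbm5, srsf1b, rbm47, rbm39a and rbm39b the 12 libraries at 10 °C (blue) lie apart from the 12 exposed at 28 °C (orange), while in tra2b the highest cold library, at 36.8, lies just above the lowest warm one, at 36.0.

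The cold response was measured in 3 further pairs of groups, each under an inhibitor, which share no library with the vehicle pair. In 10C_SB against 28C_SB larvae 14 members were called (6 higher, 8 lower, background 9.39% and 6.83%), or 4 higher and 13 lower with TPM as deposited and 1 and 16 with quantile normalization. Of these, 11 were called the same way as in vehicle larvae (78.6% of the 14 and 57.9% of the 19), and none was called the opposite way. Among all 24101 genes 2653 (11%) were called the same way in both pairs, out of 3806 called in vehicle larvae and 3909 with SB203580. The 11 shared members are out of 128, so the overlap is not read as particular to the members. Across the 128 members, which are not independent replicates, the changes of both pairs correlated with a Pearson r of 0.83 and a Spearman rho of 0.86 (n = 128). In 10C_PD against 28C_PD larvae 10 were higher and 10 lower (background 10.4% and 7.17%), or 5 and 14 with TPM as deposited and 5 and 16 with quantile normalization. Fewer calls were shared with the vehicle pair under the other inhibitors: 9 with PD0325901 (47.4% of the 19 and 45.0% of the 20, r = 0.68, rho = 0.74) and 6 with AS1842856 (31.6% of the 19 and 22.2% of the 27, r = 0.66, rho = 0.61), none in the opposite direction. The shares of these overlaps among all genes were not computed, so no result particular to the members is drawn from them.

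Only 3 members were called the same way in all 4 pairs, 2.34% of the members against 6.89% of all genes: rbm47 was higher, and rbm5 and srsf1b were lower. The means of rbm47 were 26.6 ± 1.1 and 16.8 ± 0.45 scaled TPM in 10C_AS and 28C_AS larvae, 26.2 ± 0.62 and 15.7 ± 0.37 in 10C_PD and 28C_PD larvae, and 25.8 ± 0.69 and 13.5 ± 0.75 in 10C_SB and 28C_SB larvae (SD, n = 3 each). Those of srsf1b were 22.5 ± 0.85 and 37.2 ± 0.82, 21.4 ± 0.66 and 38.9 ± 1.1, and 20.9 ± 0.25 and 36.4 ± 1.6 in the same order of groups. Over the 4 treatments 9 members had all 12 cold libraries above all 12 warm ones (7.03%, against 8.2% of all genes) and 12 had them all below (9.38%, against 5.81% of all genes). The higher ones included hnrnpub, hnrnpa1a, srsf4 and rbm24a, and the lower ones srsf5b, srsf6a, rbm12b and both genes of the kinase Prpf4b, prpf4ba and prpf4bb.

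**Figure D2:**
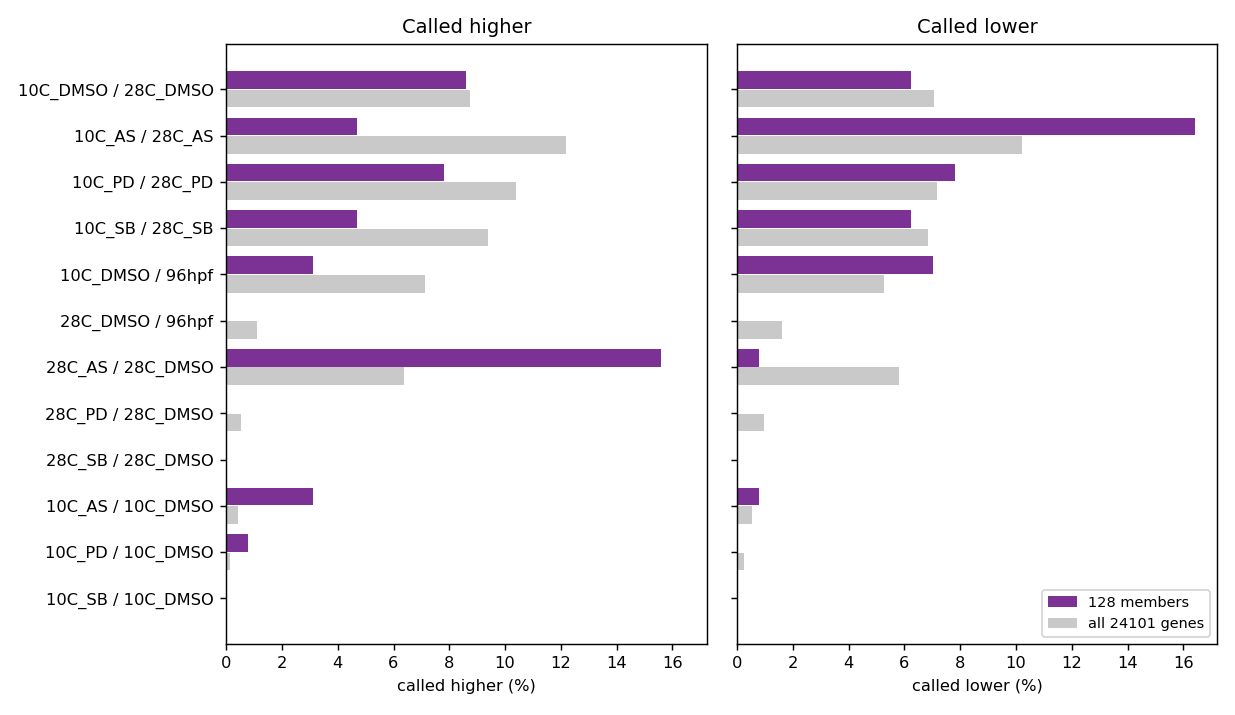
Share of the 128 members (purple) and of all 24101 genes (grey) called higher (left) and called lower (right) in each of 12 comparisons, in percent of each set. The members lie near the background in the cold of vehicle larvae and above it among the higher calls of 28C_AS against 28C_DMSO (15.6%) and the lower calls of 10C_AS against 28C_AS (16.4%).

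Against the untreated start group, 10C_DMSO larvae had 4 members higher and 9 lower (background 7.14% and 5.27%), or 2 and 13 with TPM as deposited, which moved the median of all genes to -0.14. The lower ones were srsf1b, tra2b, rbm5, rbm15, rbm39b, rbm4.1, both prpf18 identifiers and 1 of srsf3a, and the single-identifier genes among the higher ones were rbm15b and rbm47. During 12 h at 28 °C none of the members was called (28C_DMSO against 96hpf, background 2.75%), and 30 had an unadjusted limma p under 0.05 (23.4%, against 22.1% of all genes). Only 40 of the 128 members had a positive change, against 51.2% of all genes, with medians of -0.08 and 0.01. The 28C_DMSO group, the reference for the inhibitors at 28 °C, thus lay slightly below the start for most members. A comparison of 28C_AS with 96hpf larvae was not made. The gene cirbpb had 1306, 1271 and 1256 scaled TPM in 28C_DMSO larvae, against 1095, 1103 and 1007 in 96hpf larvae, without overlap and with a log2 change of 0.26. In 10C_DMSO against 96hpf larvae both cirbp genes were also higher, with log2 changes of 0.18 and 0.27, and neither was called.

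The clearest departure from the background was in larvae given the Foxo1 inhibitor at 28 °C. In 28C_AS against 28C_DMSO larvae 20 members were called higher (15.6%, background 6.39%) and 1 lower (0.781%, background 5.81%). The median change was 0.24 over the members and -0.01 over all genes, and 98 of the 128 members had a positive change, against 48.7% of all genes. The counts were 17 higher and 1 lower with TPM as deposited, and 20 and 2 with quantile normalization. Of the 20 higher members 15 have a single identifier. All 21 called members had groups that did not overlap, but they were selected on these same libraries, so this adds no support. Of all 128 members 69 lay wholly higher and 8 wholly lower in 28C_AS larvae. The share of such genes among all genes was not computed, so no result particular to the members is drawn from this count. An unadjusted limma p under 0.05 was reached by 76 members (59.4%, against 42.9% of all genes).

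**Figure D3:**
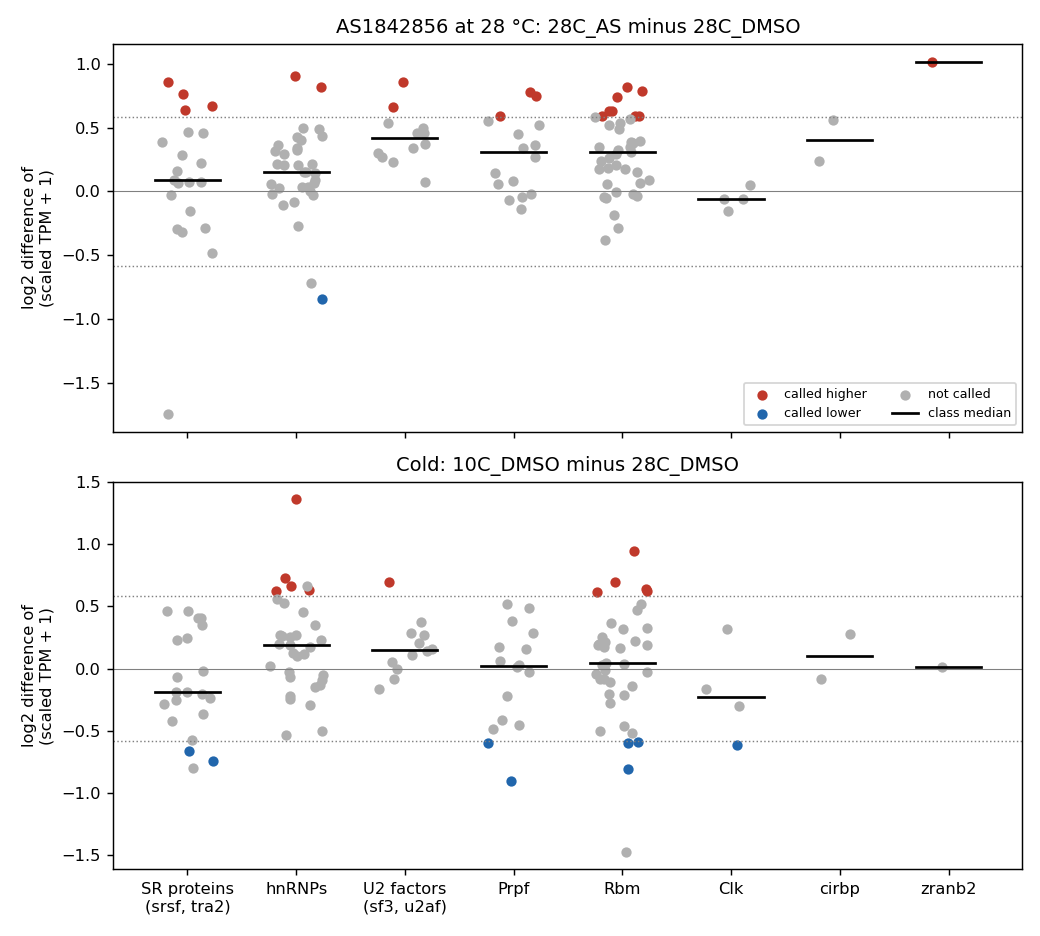
Log2 differences (vertical axes) of all members by class, for 28C_AS minus 28C_DMSO (top) and 10C_DMSO minus 28C_DMSO (bottom), with dotted lines at the fold of 1.5 and black bars at class medians. With AS1842856 at 28 °C all 12 U2 factor genes lie above 0 and the class median is 0.42, against 0.15 in the cold.

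All 12 U2 factor genes had a positive change, with a median of 0.42, and 2 were called. The gene sf3b3 (ENSDARG00000103553), for a subunit of the SF3B complex that holds the branch point, had 45.8, 46.0 and 45.8 scaled TPM in 28C_AS larvae, against 24.4, 24.7 and 25.2 in 28C_DMSO larvae. The gene sf3b4, for another SF3B subunit, had 27.1, 28.0 and 26.0 in 28C_AS larvae, against 16.4, 16.2 and 17.5 in 28C_DMSO larvae. Both groups were tight and far apart, with log2 changes of 0.86 ± 0.06 and 0.66 ± 0.10 (SE, limma adjusted p = 6.58e-10 and 1.43e-05).

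Of the Prpf genes 3 of 16 rose, among them prpf19 and prpf8. The gene prpf19, for the ubiquitin ligase that activates the spliceosome, had 51.0, 50.2 and 45.7 scaled TPM in 28C_AS larvae, against 28.4, 27.3 and 28.2 in 28C_DMSO larvae, a log2 change of 0.78 ± 0.07. The gene prpf8, for the large U5 protein at the catalytic centre, had 42.2, 43.3 and 45.2 in 28C_AS larvae, against 31.2, 26.4 and 28.5 in 28C_DMSO larvae, a change of 0.59 ± 0.08. In both genes the groups stood apart, and the limma adjusted p was 1.99e-08 for prpf19 and 6.47e-06 for prpf8. The call of prpf8 lay at the fold threshold and was lost without 28C_DMSO replicate 2 (0.53) or 28C_AS replicate 3 (0.56), and with either other scaling (0.57 to 0.58).

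Of the SR protein genes 4 of 21 rose, srsf2a, srsf11, srsf1a ENSDARG00000057691 and srsf7a ENSDARG00000035325. The gene srsf2a had 99.6, 109 and 139 scaled TPM in 28C_AS larvae, against 63.3, 69.4 and 68.1 in 28C_DMSO larvae, and srsf11 had 150, 157 and 164 in 28C_AS larvae, against 119, 91.4 and 86.6 in 28C_DMSO larvae. Their log2 changes were 0.77 ± 0.16 and 0.67 ± 0.08 (SE, limma adjusted p = 0.000704 and 1.39e-06). The srsf1a identifier had 110, 108 and 116 in 28C_AS larvae, against 55.5, 65.0 and 62.5 in 28C_DMSO larvae, but the sum over both srsf1a identifiers changed by 0.44 and was not called, and the same held for srsf7a, with 0.38. The call of that srsf7a identifier, with a change of 0.64, was lost without 28C_DMSO replicate 3 (0.42) or 28C_AS replicate 2 (0.56).

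The gene zranb2 (ENSDARG00000044332), for a zinc finger splicing regulator with an SR-like tail, showed the largest rise of all members. It had 51.6, 55.3 and 57.2 scaled TPM in 28C_AS larvae, against 24.4, 28.8 and 26.3 in 28C_DMSO larvae, a log2 change of 1.02 ± 0.12 (SE, limma adjusted p = 9.44e-07). Of the Rbm genes 8 of 39 rose and none fell. These were rbmx2 (0.82), part of the activated spliceosome, rbm28 (0.79), rbm19 ENSDARG00000042590 (0.74), rbm4.3 (0.63), rbm17 (0.63), rbm34 (0.60), rbm25b (0.59) and rbm5 (0.59). The level of rbmx2 was low, with a mean of 2.57 scaled TPM over all libraries.

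Not all of these serve splicing: the yeast counterparts of rbm28, rbm19 and rbm34 work in ribosome biogenesis in the nucleolus. The gene rbm28 had 20.5, 17.0 and 18.2 scaled TPM in 28C_AS larvae, against 9.34, 11.0 and 10.6 in 28C_DMSO larvae, and summed rbm19 averaged 8.86 ± 0.696 in 28C_AS larvae and 4.69 ± 0.105 in 28C_DMSO larvae (SD, n = 3 each), a change of 0.79. The calls nearest the threshold moved with single libraries. That of rbm5 was lost without 28C_DMSO replicate 1 (0.58) or replicate 2 (0.54) or 28C_AS replicate 3 (0.57) and with quantile normalization (0.53) or TPM as deposited (0.58), that of rbm25b without 28C_DMSO replicate 1 (0.56) or 2 (0.54) or 28C_AS replicate 2 (0.57) or 3 (0.56) and with TPM as deposited (0.58), that of rbm34 without 28C_DMSO replicate 2 (0.56) or 28C_AS replicate 1 (0.57) or 2 (0.53), and that of rbm17 without 28C_DMSO replicate 1 (limma adjusted p = 0.0791) or 3 (0.0534) or 28C_AS replicate 1 (0.134).

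Among hnRNP genes 2 identifiers rose, hnrnpa0b ENSDARG00000036162 (0.91) and hnrnpa0l ENSDARG00000036161 (0.82). Summed by symbol they changed by 0.51 and 0.44 and were not called. The single fall among all members was that of hnrnpa3, a relative of hnRNP A1, with 8.72, 8.62 and 7.96 scaled TPM in 28C_AS larvae, against 15.0, 15.8 and 17.0 in 28C_DMSO larvae, and a log2 change of -0.84 ± 0.11 (SE, limma adjusted p = 4.6e-06). No Clk gene was called and their median was -0.06. The gene cirbpa averaged 490 ± 12 scaled TPM in 28C_AS larvae and 332 ± 11 in 28C_DMSO larvae (SD, n = 3 each), a change of 0.56 that lies just under the fold threshold (limma adjusted p = 3.76e-11).

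**Figure D4:**
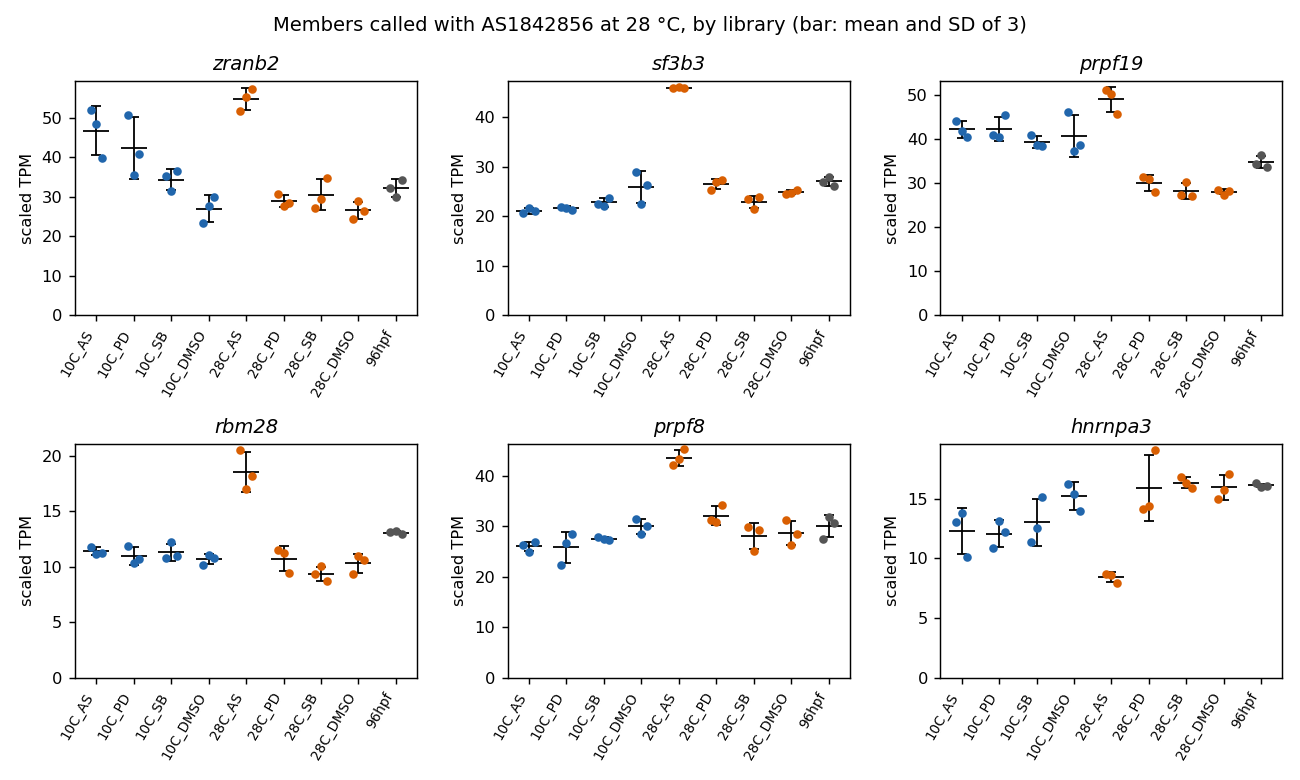
Scaled TPM (vertical axes, from 0) of 6 members called with AS1842856 at 28 °C, in every library by group, with the mean and SD of 3 libraries. In sf3b3, rbm28 and prpf8 the 28C_AS libraries lie above those of all other groups, in hnrnpa3 they lie below them, and in zranb2 the 10C_AS and 10C_PD libraries are also high.

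Other genes of the splicing machinery, taken from lists that exclude the members, were counted in the same fit. Of 39 identifiers of core snRNP genes 14 were called higher in 28C_AS against 28C_DMSO larvae and none lower, with a median of 0.40, led by snu13b (1.39), 1 of 2 identifiers of snrpd3 (0.98), snrpd1 (0.96) and snu13a (0.90), which encode proteins of the U4 particle and the Sm ring. Of 66 spliceosome assembly genes 9 were higher, among them 1 of 2 identifiers of magoh (0.90) and pnn (0.88), linked to the exon junction complex, and none was lower. Of 69 other splicing regulators 6 were higher, such as ssb (1.11), which encodes the La protein, and 1 was lower, 1 of 2 identifiers of tardbp (-0.63). The background in this comparison was 6.39% higher and 5.81% lower. The count of higher genes among these other regulators is therefore not read as a departure from it. Of 22 SR protein kinase and phosphatase genes 1 was lower and none higher, and of 19 genes of nonsense-mediated decay none was called. In the cold of vehicle larvae the core snRNP list had 2 higher and none lower with a median of 0.11, and the assembly list had 2 higher, sf1 (1.11) and ddx5 (1.06), and 2 lower, luc7l3 (-0.83) and slu7 (-0.79). The background there was 8.73% higher and 7.06% lower, so nothing particular to these lists is drawn from their cold counts.

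Markers of cycling cells moved beside the members at 28 °C. Of 23 cell cycle markers 7 were higher in 28C_AS against 28C_DMSO larvae and none lower (background 6.39% and 5.81%). Their summed level was 801 to 860 scaled TPM in 28C_AS larvae, against 601 to 620 in 28C_DMSO larvae. In 96hpf larvae that sum was 763 to 774, and 6 of the 23 were lower in 28C_DMSO than in 96hpf larvae. Leukocyte markers summed to 133 to 180 in 28C_AS larvae, against 284 to 327 in 28C_DMSO larvae, with 3 of 16 lower, and exocrine pancreas markers to 21911 to 22870, against 27408 to 28988, with 3 of 22 lower. Liver markers summed to 8096 to 8737 in 28C_AS larvae, against 11280 to 12393 in 28C_DMSO larvae (2 of 16 lower), skeletal muscle markers to 56803 to 61017, against 70534 to 78252 (3 of 27 lower), and epidermis markers to 7604 to 8613, against 9234 to 10513 (2 of 20 lower). The median log2 changes of these lists were -0.36 for liver, -0.01 for skeletal muscle and -0.32 for epidermis markers. The lower muscle sum was thus not a fall of the muscle list as a whole. In 96hpf larvae the sums were 55075 to 62843 for skeletal muscle, 7651 to 8561 for epidermis and 16880 to 18525 for exocrine pancreas markers. Those of liver and leukocyte markers were 11560 to 12296 and 252 to 288. None of 20 neuron and 16 erythroid markers was called. Erythroid markers summed to 6010 to 6679 in 28C_AS larvae, against 6987 to 7673 in 28C_DMSO larvae, with a median log2 change of -0.13. Neuron markers summed to 1695 to 1733, against 1722 to 1789, with a median of -0.02. The mitochondrial share was 10.8 to 11.1% in 28C_AS larvae, against 7.30 to 9.91% in 28C_DMSO larvae. The part of these in the members' result was not tested. In the cold of vehicle larvae 21 of 22 exocrine pancreas markers were lower, and their part was likewise not tested.

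The response to the Foxo1 inhibitor differed between temperatures. The difference of the change at 10 °C minus that at 28 °C was called for 15 members, all of them negative (11.7%, background 5.39% lower and 5.36% higher), and its median was -0.24 over the members and 0.01 over all genes. Of the 20 members higher at 28 °C 9 were among them. Both results use the 28C_AS and 28C_DMSO libraries, so the share of negative differences is not independent of the rises at 28 °C. Among all genes AS1842856 had 12.2% called at 28 °C and 0.925% at 10 °C. A member chosen for its rise at 28 °C tends to a negative difference by construction, so this overlap adds no support. Prpf genes had 4 of 16 called, U2 factor genes 3 of 12, Rbm genes 5 of 39, hnRNP genes 2 of 33 and SR protein genes 1 of 21. Cell cycle markers moved the same way, with 7 of 23 called lower, none higher and a median of -0.44, and their summed level was 659 to 731 scaled TPM in 10C_AS larvae, against 712 to 765 in 10C_DMSO larvae. Their part in this result was not tested.

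The gene sf3b3 had the largest called difference, -1.14 ± 0.09 (SE, limma adjusted p = 7.67e-09). It had 20.5, 21.6 and 20.9 scaled TPM in 10C_AS larvae, against 28.9, 22.5 and 26.2 in 10C_DMSO larvae, so that the 10 °C inhibitor libraries lay below the vehicle ones where at 28 °C they lay far above. The change of sf3b3 at 10 °C, -0.28, was under the fold threshold and not called. For sf3b4 the difference was -0.86 ± 0.14, with 18.5, 19.3 and 15.0 in 10C_AS larvae, against 20.7, 19.1 and 21.1 in 10C_DMSO larvae, which overlapped. For prpf8 it was -0.79 ± 0.11, with 26.2, 25.0 and 26.9 in 10C_AS larvae, against 31.5, 28.4 and 30.1 in 10C_DMSO larvae. The change of prpf8 at 10 °C, -0.20, was not called either (limma adjusted p = 0.183). For prpf19 the difference was -0.73 ± 0.10, and its levels of 44.1, 41.8 and 40.5 in 10C_AS larvae, against 46.1, 37.2 and 38.7 in 10C_DMSO larvae, overlapped. The limma adjusted p of these last 3 were 8.36e-05, 3.05e-05 and 1.63e-05, and the 4 calls held under every alternative tried. The identifier ENSDARG00000086425 of prpf3, for a protein of the U4/U6 particle, had the difference nearest to that of sf3b3, -1.0 ± 0.30, but 1 vehicle library set it. It had 4.12, 3.23 and 4.29 in 10C_AS larvae, against 4.28, 11.2 and 3.84 in 10C_DMSO larvae, and without 10C_DMSO replicate 2 the difference was -0.58 and no longer called.

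Seen along the other axis, 10C_AS against 28C_AS larvae had 21 members lower (16.4%, background 10.2%) and 6 higher (4.69%, background 12.2%), or 24 and 2 with TPM as deposited, and a median of -0.16. This comparison shares the 28C_AS libraries with the result at 28 °C and is not independent of it. Cell cycle markers had 6 of 23 lower and 1 higher beside them, and their part was not tested. The lower ones with a single identifier were led by rbm5 (-1.20), sf3b3 (-1.09), rbm12b (-0.96), prpf4bb (-0.83), prpf8 (-0.72) and srsf1b (-0.70), and the higher ones by rbm24a (0.71), for a regulator of muscle splicing, and rbm47 (0.63). Levels of rbm5 were 50.1 ± 1.5 scaled TPM in 10C_AS larvae and 116 ± 3.8 in 28C_AS larvae (SD, n = 3 each).

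**Figure D5:**
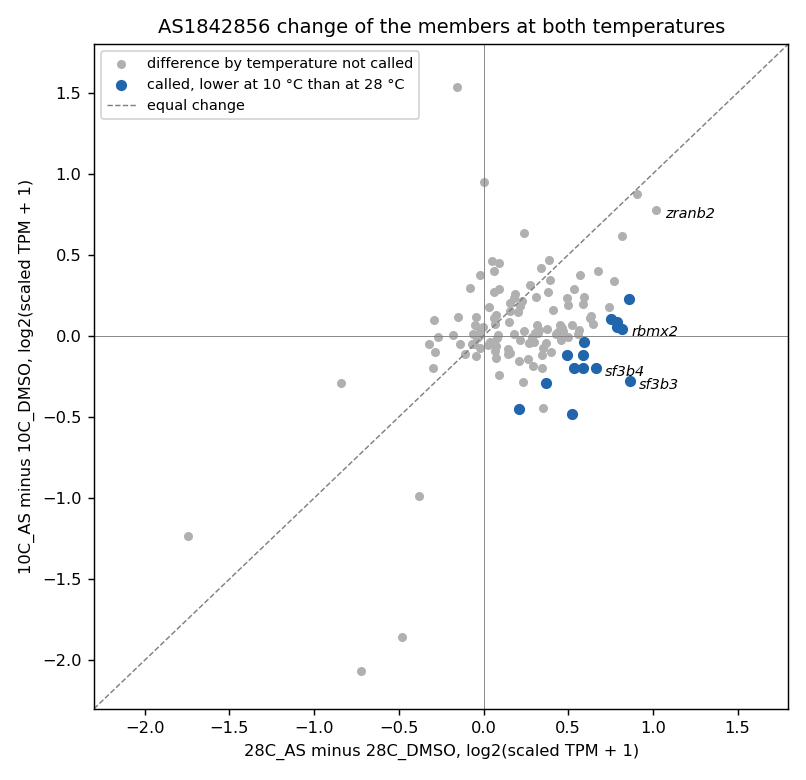
Change of each of the 128 members with AS1842856 at 28 °C (horizontal axis) and at 10 °C (vertical axis), both as differences of log2(scaled TPM + 1), with the line of equal change dashed. The 15 members whose difference by temperature was called (blue) all lie below the line, among them sf3b3, sf3b4 and rbmx2, while zranb2 rose at both temperatures.

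At 10 °C few members were called with an inhibitor. An unadjusted limma p under 0.05 was reached by 41 members with AS1842856 (32%, against 19.3% of all genes). With PD0325901 it was reached by 33 (25.8%, against 12.7%). In 10C_AS against 10C_DMSO larvae 4 were called higher (3.12%, background 0.407%) and 1 lower (0.781%, background 0.519%), where 0.925% of all genes were called in either direction. Only zranb2 among them has a single identifier, with 52.1, 48.4 and 39.8 scaled TPM in 10C_AS larvae, against 23.2, 27.5 and 30.0 in 10C_DMSO larvae, groups that did not overlap, and a log2 change of 0.77 ± 0.12 (SE, limma adjusted p = 0.0011). In a fit on the compared groups alone none of the 5 was called, and the limma adjusted p of zranb2 was 0.122. Its difference between temperatures, -0.25, was not called.

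The other calls at 10 °C depended on how copies were split. The lower one, srsf1a ENSDARG00000111226 (-1.86), had 19.9, 2.63 and 5.93 scaled TPM in 10C_AS larvae, against 40.8, 23.7 and 23.2 in 10C_DMSO larvae, but the sum of both srsf1a identifiers changed by -0.10. Its call was lost without 10C_DMSO replicate 1 or 10C_AS replicate 2 or 3 (limma adjusted p = 0.0604 to 0.0928), and that of rbm24b ENSDARG00000031809 (0.63) without 10C_DMSO replicate 1 or any 10C_AS replicate (limma adjusted p = 0.0538 to 0.185). The hnrnpa0l identifier ENSDARG00000036161 had 243, 229 and 235 in 10C_AS larvae, against 121, 171 and 174 in 10C_DMSO larvae (0.62, or 0.45 and not called without 10C_DMSO replicate 1), while ENSDARG00000114889 had 195, 204 and 218 in 10C_AS larvae, against 316, 254 and 277 in 10C_DMSO larvae, and the sum of the 3 hnrnpa0l identifiers changed by 0.02. Summed hnrnpa0b changed by 0.12 and summed rbm24b by 0.21, both not called. With TPM summed by symbol 1 symbol was left among the calls.

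In 10C_PD against 10C_DMSO larvae zranb2 was the only called member (0.781% higher, background 0.12%), with 50.8, 35.4 and 40.8 scaled TPM in 10C_PD larvae, against 23.2, 27.5 and 30.0 in 10C_DMSO larvae, groups that did not overlap, and a log2 change of 0.63 ± 0.12 (SE, limma adjusted p = 0.0109). The call was lost without 10C_DMSO replicate 1 (0.53), without 10C_PD replicate 1 (0.49) and in a fit on both groups alone. Both inhibitor comparisons at 10 °C share the 10C_DMSO libraries. Over all groups the means of zranb2 were 54.7 ± 2.9 in 28C_AS, 46.8 ± 6.3 in 10C_AS, 42.3 ± 7.8 in 10C_PD, 34.3 ± 2.7 in 10C_SB, 32.2 ± 2.2 in 96hpf, 30.5 ± 3.9 in 28C_SB, 28.9 ± 1.6 in 28C_PD, 26.9 ± 3.4 in 10C_DMSO and 26.5 ± 2.2 in 28C_DMSO larvae (SD, n = 3 each). Neighbours in this order differed by less than the larger of their SDs, except 28C_AS from 10C_AS and 10C_PD from 10C_SB.

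The MEK and p38 inhibitors left the members uncalled elsewhere. No member was called by limma in 28C_PD against 28C_DMSO larvae (background 1.49%), in 28C_SB against 28C_DMSO larvae (background 0.0207%, of which 0.00415% higher and 0.0166% lower), in 10C_SB against 10C_DMSO larvae (background 0.0207%, of which 0.0166% higher and 0.00415% lower), or for the difference between temperatures with PD0325901 (background 1.62%) and SB203580 (background 0.029%, of which 0.0083% lower). At an unadjusted limma p under 0.05 there were 31 members with PD0325901 at 28 °C (24.2%, against 19.2% of all genes), 19 with SB203580 at 28 °C (14.8%, against 8.61%) and 17 at 10 °C (13.3%, against 8.68%), and for the difference between temperatures 31 with PD0325901 (24.2%, against 17.1%) and 10 with SB203580 (7.81%, against 8.1%). At 28 °C with PD0325901 the smallest adjusted p belonged to hnrnpa1a, with a log2 change of 0.29 ± 0.04 (SE, limma adjusted p = 7.08e-05), under the fold threshold. In that comparison 92 of the 128 members had a positive change, against 50.5% of all genes, with medians of 0.08 and 0.00. With TPM as deposited 123 were positive, and the medians were 0.21 over the members and 0.12 over all genes.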

How the data were processed

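RNA sequencing measured transcript levels of 27 libraries, 3 in each of 9 groups taken from the sample titles. The authors quantified reads against zebrafish cDNA of Ensembl release 101 with Salmon 0.13.1, with GC, sequence and position bias correction, summed transcripts to genes with tximport, kept genes with TPM of at least 1 in all replicates of a group, and deposited TPM, which keeps no depth. No count test was run.

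Each library's TPM was divided by its size factor, the median of ratios to the geometric mean. R 4.3.3 and limma 3.58.1 with a trended prior fitted log2(scaled TPM + 1), so the pseudocount of 1 understates changes of low genes, with 1 mean per group and 18 residual degrees of freedom. Tests were two-sided, with Benjamini-Hochberg adjustment across all 24101 genes. Thresholds and filter follow the study. The fit was tested on simulated data. An exact permutation of 3 against 3 libraries cannot go below p = 0.1 and was not used.

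The members, classes and lists were chosen with earlier results of these data known. The rule for named members was, in the cold, up to 6 called members each way per class, all cirbp, Clk and zranb2 genes, and members just under the fold threshold, and elsewhere up to 6 each way and, for differences by temperature, up to 4 (prpf19 was added after its value was seen). With AS1842856 at 28 °C the called members are named and those called in its difference by temperature are listed, an extension made after their values were seen, as are the paralog ratios and the members apart over 12 against 12 libraries. Alternatives were deposited TPM, quantile normalization, a pseudocount of 0.1, a mean of at least 5 scaled TPM, a fit on the compared groups alone, a replicate block, single-identifier symbols and leaving out each replicate. Summing by symbol and leaving out both DMSO libraries of low mitochondrial share were chosen after seeing the data. The values of 1 called member are not reported here. Symbols and identifiers were taken from the deposited table, and no genome was used, so no sequence or coordinate is given. A reference list of gene names held 111 of the 128 identifiers.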

Additional observations from a re-analysis of the deposited data

Results flagged for a closer look

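For 15 members the change with AS1842856 at 10 °C differed from that at 28 °C by limma's test of the difference itself, called at the same thresholds. That test shares its 28 °C libraries with the rises at 28 °C and is not independent of them. Among the differences, 10 °C minus 28 °C on the log2 scale, were -1.14 for sf3b3, -1.0 for prpf3 ENSDARG00000086425, -0.86 for sf3b4, -0.79 for prpf8, -0.77 for rbmx2, -0.73 for sf3a1, -0.73 for prpf19, -0.70 for rbm19 ENSDARG00000112734, -0.70 for rbm28, -0.66 for hnrnpa0l ENSDARG00000114889, -0.66 for hnrnpa1b, -0.63 for srsf1a ENSDARG00000057691, -0.63 for rbm25b and -0.61 for rbm27. Those of sf3b3, sf3b4, prpf8, rbmx2, prpf19 and rbm28 kept their call under every alternative tried. That of prpf3 rested on 10C_DMSO replicate 2, which had 11.2 scaled TPM where the other two had 4.28 and 3.84, and it was -0.58 without that library. That of sf3a1 was -0.56 without both DMSO libraries of low mitochondrial share. That of rbm19 ENSDARG00000112734, a copy of 0.724 to 2.33 scaled TPM in these groups, was lost in 7 alternatives. The others lost their call without 1 or another library, where hnrnpa0l was -0.56 to -0.58, hnrnpa1b -0.58, srsf1a -0.55 to -0.57, rbm25b -0.58 and rbm27 -0.53 to -0.58. Summed by symbol, prpf3 (-0.70) and rbm19 (-0.68) were called, and srsf1a (-0.54) and hnrnpa0l (-0.42) were not.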

How the results depend on the processing

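The direction of the members' calls was stable for AS1842856 at 28 °C and for its difference between temperatures, while the split in the cold followed the scaling. Calls at 10 °C were few and 1 library or the choice of fit moved them: on the compared groups alone 0 members were called with AS1842856 and 0 with PD0325901 at 10 °C, and without both DMSO libraries of low mitochondrial share 2 and 0. With single-identifier symbols (92 members) the counts were 12 in the cold, 8 against the start, 17 in the cold with AS1842856, 12 in the cold with PD0325901 and 1 with AS1842856 at 10 °C. Summed by symbol they were 13 in the cold with PD0325901 and 1 with AS1842856 at 10 °C. With TPM as deposited 1 member was called with PD0325901 at 28 °C and 3 for its difference by temperature, which also had 1 with a pseudocount of 0.1 and 1 after a filter on a mean of 5 scaled TPM. Leaving out 1 library gave 17 to 20 calls in the cold, 10 to 14 against the start, 21 to 26 in the cold with AS1842856, 15 to 21 with PD0325901 and 16 to 18 with SB203580, 2 to 6 for AS1842856 and 0 to 2 for PD0325901 at 10 °C, 18 to 21 for AS1842856 at 28 °C, 13 to 17 for its difference by temperature and 0 to 2 for that of PD0325901, and 0 in the others. The change of zranb2 in the cold, near 0, turned to -0.04 with TPM as deposited, -0.10 with quantile normalization, -0.04 without 28C_DMSO replicate 1, and -0.00 and -0.06 without 10C_DMSO replicates 2 and 3, the leave-one-out range being -0.06 to 0.12. The causes were not tested.

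Same-numbered replicates were not shown to be paired, since in each comparison at least 1 same-number correlation of deviations was 0.053 or lower. With a replicate block 19 members were called in the cold, 13 against the start, 26, 20 and 15 in the cold with AS1842856, PD0325901 and SB203580, 22 with AS1842856 at 28 °C, 5 at 10 °C and 16 for its difference by temperature, and 1 with PD0325901 at 10 °C.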
